A study of Mus musculus with 23 samples.

Results

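Lewis lung carcinoma (LLC) is a transplantable tumour line from a mouse lung carcinoma, and the subject here is subclone 28 of that line set against subclones 2, 3 and 6. The members were the arrays that the labels give to these subclones: 11 of the 23 arrays of the study, with 3 arrays of subclone 28, 3 of subclone 2, 3 of subclone 3 and 2 of subclone 6. Each subclone is 1 clone, obtained from the parental cells by limiting dilution. All of them, subclone 28 included, were grown with 10% fetal bovine serum and then held for 24 h in a serum-free medium before total RNA was taken, so no subclone stands for cells in serum, and no parental sample was analysed here. The other 12 arrays belonged to subclones 18, 19, 23 and 24, with 3 arrays each, under the same conditions.

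Cells of a tumour line can drift apart in culture, and limiting dilution starts each clone from a single founder cell. Differences between such clones can involve genes switched on or off as a whole, gains and losses of chromosomes, and shifts in metabolism or signalling. Serum-free holding is how conditioned medium is made, so the genes for secreted proteins, receptors and enzymes of the matrix are of interest in these cultures.

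Levels are given as log2(intensity + 16) of the deposited array values, with 1 probe set per gene for 18193 genes. A level of 6.32 corresponds to an intensity of 64, and values below it are treated as low, since no detection calls were used here. Folds are on this scale, which makes changes of weakly expressed genes look smaller than they are. Levels of different genes come from different probes and are not compared with each other. A gene was called when its Benjamini-Hochberg adjusted p from limma was under 0.05 and its log2 difference 1 or more in either direction. It is described as apart from each subclone when the differences from subclone 2, from subclone 3 and from subclone 6 all passed in one direction. These pairwise comparisons share the arrays of subclone 28, so they are not independent of each other. Per the labels the arrays are biological replicates, with no word on how the cultures were kept separate, so p-values measure only the spread between these arrays. Subclone 6, with 2 arrays, is the least precise reference.

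The proposal to set subclone 28 apart named 4 genes: Efemp1 and Sema3c, which were low in it, and Zfp503 and Acot1, which were high. The 250 bases before the start of these genes are shown because the proposal named them. Those of Acot2, the neighbouring paralogue of Acot1, are shown because Acot1 and Acot2 behaved differently. The sequences and positions are from RefSeq on build GRCm38.p6, written 5′ to 3′ on the strand of the gene, in lower case with every CG in capitals. They are reference sequence, read from a table and not from these cells. The window of Efemp1 lies at chr11:28852955-28853204 on the plus strand, Sema3c at chr5:17574566-17574815 (plus), Zfp503 at chr14:21989602-21989851 (minus), Acot1 at chr12:84009252-84009501 (plus) and Acot2 at chr12:83987611-83987860 (plus).
Efemp1: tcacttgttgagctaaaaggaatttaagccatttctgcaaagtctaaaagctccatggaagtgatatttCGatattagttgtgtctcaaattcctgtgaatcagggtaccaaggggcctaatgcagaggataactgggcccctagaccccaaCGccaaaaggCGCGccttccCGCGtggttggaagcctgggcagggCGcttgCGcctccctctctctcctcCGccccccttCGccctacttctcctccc
Sema3c: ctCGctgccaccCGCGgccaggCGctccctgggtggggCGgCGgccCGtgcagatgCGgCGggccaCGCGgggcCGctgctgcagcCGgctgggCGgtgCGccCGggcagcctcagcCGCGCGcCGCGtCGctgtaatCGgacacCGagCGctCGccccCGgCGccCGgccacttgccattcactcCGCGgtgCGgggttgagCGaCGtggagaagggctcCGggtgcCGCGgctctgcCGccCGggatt
Zfp503: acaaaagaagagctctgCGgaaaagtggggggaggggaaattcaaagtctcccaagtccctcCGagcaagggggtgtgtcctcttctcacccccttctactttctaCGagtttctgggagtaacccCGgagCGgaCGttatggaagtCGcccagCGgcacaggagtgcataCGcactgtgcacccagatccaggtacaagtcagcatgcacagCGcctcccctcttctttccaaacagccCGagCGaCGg
Acot1: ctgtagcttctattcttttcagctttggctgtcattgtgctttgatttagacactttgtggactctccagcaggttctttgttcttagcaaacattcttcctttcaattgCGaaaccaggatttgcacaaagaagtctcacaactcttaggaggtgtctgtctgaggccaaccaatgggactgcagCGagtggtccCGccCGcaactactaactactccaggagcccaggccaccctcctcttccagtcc
Acot2: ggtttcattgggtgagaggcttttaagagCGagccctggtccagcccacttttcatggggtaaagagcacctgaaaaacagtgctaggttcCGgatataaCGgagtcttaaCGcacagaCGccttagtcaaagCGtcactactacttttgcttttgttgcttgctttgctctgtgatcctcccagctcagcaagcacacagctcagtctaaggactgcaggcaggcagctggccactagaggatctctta
The Sema3c window held 39 CG dinucleotides, a number reached by 1.57% of the 32841 windows in the table. Efemp1 had 10 (37.8% of windows held as many), Zfp503 13 (31.5%), Acot1 4 (62.2%) and Acot2 6 (50.4%), against a median of 6 over all windows. The letters TATAAA, searched on both strands, were in none of these 5 windows and in 12.4% of all windows. Promoter DNA was not measured in this study, so these counts describe the reference only.

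On average, arrays of subclone 28 lay somewhat farther from each of the other 3 than these lay from one another. The root mean square log2 distance over all genes averaged 0.382 between arrays of subclones 28 and 2, 0.385 for 28 and 3, and 0.363 for 28 and 6. Among the references it was 0.35 for 2 and 3, 0.331 for 2 and 6, and 0.307 for 3 and 6. Single pairs of arrays overlapped, from 0.353 to 0.377 for 28 and 6 and from 0.335 to 0.359 for 2 and 3. Within subclone 28 it was 0.184 over 3 pairs of arrays. Within subclones 2, 3 and 6 it was 0.209, 0.228 and 0.241, the last from 1 pair. These distances are descriptions and were not tested.

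Against the mean of subclones 2, 3 and 6, 111 genes (0.61% of those tested) were higher in subclone 28 and 61 (0.335%) were lower, by limma with Benjamini-Hochberg adjustment. With no minimum difference, 3402 genes (18.7%) were higher and 2994 (16.5%) lower, so many small differences passed the test. Among expressed genes, those at or above the low level with a known chromosome, the shares were 30.0% and 26.4%. Counts over gene lists below are to be read beside both pairs of shares, since many lists hold mostly expressed genes. By the pairwise thresholds, 193 genes (1.06%) were higher and 82 (0.451%) lower against subclone 2, 145 (0.797%) and 89 (0.489%) against subclone 3, and 116 (0.638%) and 97 (0.533%) against subclone 6. The genes apart from each subclone numbered 56 higher (0.308%) and 31 lower (0.17%), 87 in all (0.478%). The closest reference for these 87 was subclone 6 for 41, subclone 2 for 24 and subclone 3 for 22.

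In all 87 genes, every array of subclone 28 lay beyond every array of the references, as it did in 11.8% (higher) and 9.3% (lower) of all genes tested. The median of the smallest pairwise difference was 1.38 log2 units for the higher genes and -1.63 for the lower ones, and 13 higher and 11 lower genes differed by at least 4-fold from each subclone. At the edge of the threshold, Tpd52l1 (1.02) was the last gene inside on the higher side and Pcdhb15 (0.997) the first outside. Another 85 genes were called against the mean but were not apart from each subclone. For 35 of the 56 higher genes, all 3 references were below the low level of 6.32, and for 18 of the 31 lower genes subclone 28 was. For 10 of the 56 higher genes subclone 28 itself was below that level, so both sides were low. For most of the 87 genes, one side of the comparison was thus a low signal.

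**Figure D1:**
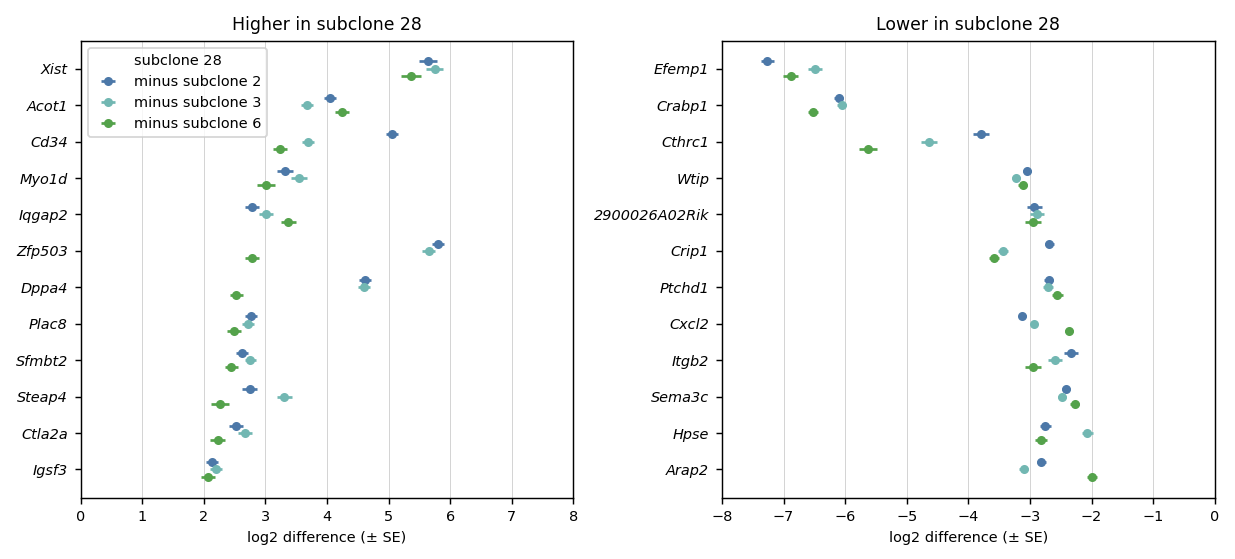
Log2 differences between subclone 28 and subclones 2, 3 and 6 (points, ± SE from limma) for the 12 higher and 12 lower genes with the largest smallest difference. Efemp1 and Crabp1 lie below -6 against each subclone and Xist lies above 5.

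Genes for matrix and other secreted proteins were among those that were lower. Efemp1 encodes fibulin-3, a secreted glycoprotein of the extracellular matrix. Its levels were 12.01, 11.98 and 11.88 on the arrays of subclone 2, 10.97, 11.33 and 11.24 in subclone 3, 11.68 and 11.47 in subclone 6, and 4.81, 4.77 and 4.5 in subclone 28. Subclone 28 was at the bottom of the scale while all 8 reference arrays were high, with no overlap. The difference from the mean was -6.88 ± 0.093 (SE; adjusted p = 3.34e-19, limma), and the smallest of the pairwise differences was -6.49, against subclone 3. Among the 4 remaining subclones, subclone 19 was also at the bottom (4.72), and 18, 23 and 24 were high. In these bulk cultures, fewer cells with the transcript and less transcript per cell cannot be told apart.

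Of 21 measured elastic fibre and fibulin genes, 4 were higher and 2 lower by adjusted p, with a median difference of -0.03 against 0.0 for all genes. Fbln2, another fibulin, was the other lower member (-0.82). Fbln1 (0.56), Ltbp1 (0.44), which binds latent TGF-beta, and Lox (0.61), which crosslinks collagen and elastin, were higher. These members, like others of the lists that are not in the plots, were picked after their values were seen.

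Cthrc1, a secreted protein with a collagen-like repeat, was 4.33, 4.28 and 4.93 in subclone 28. It ranged from 8.30 to 8.31 in subclone 2 and from 8.97 to 9.41 in subclone 3, and was 10.16 and 10.13 in subclone 6. The groups did not overlap, and the references themselves were graded (-3.79 against 2, -4.64 against 3 and -5.63 against 6). Lama4, a laminin chain of basement membranes, was higher instead (6.31 against 4.24 to 4.83, difference 1.85 ± 0.086), but its mean in subclone 28 was just below the low level, and with a pseudocount of 64 its difference was 0.86 and no longer called. Of 49 collagens and other matrix genes, 19 were higher (38.8%) and 7 lower (14.3%) than the mean. Over all genes these shares were 18.7% and 16.5%, and over expressed genes 30.0% and 26.4%. Against each subclone, 10 and 5 passed the adjusted p in the same direction, against 7.99% and 6.5% of all genes.

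Crabp1, a cytosolic protein that binds retinoic acid, was 11.56, 11.56 and 11.63 in subclone 2, 11.49, 11.58 and 11.52 in subclone 3, 12 on both arrays of subclone 6, and 5.58, 5.29 and 5.57 in subclone 28. Every reference array was high and every array of subclone 28 low, a difference of -6.23 ± 0.061 (adjusted p = 2.91e-21, limma). Of 25 retinoid genes, 5 were lower by limma's adjusted p, 3 of them against each subclone, and 0 were higher, also at an unadjusted p under 0.05. The 5 make 20% of the list, near the 16.5% of all genes that were lower. Rdh10 (-0.96) and Rdh11 (-0.83), enzymes that oxidise or reduce retinoids, were among them, while the receptor genes Rara (-0.18) and Rarb (0.10) were not called.

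**Figure D2:**
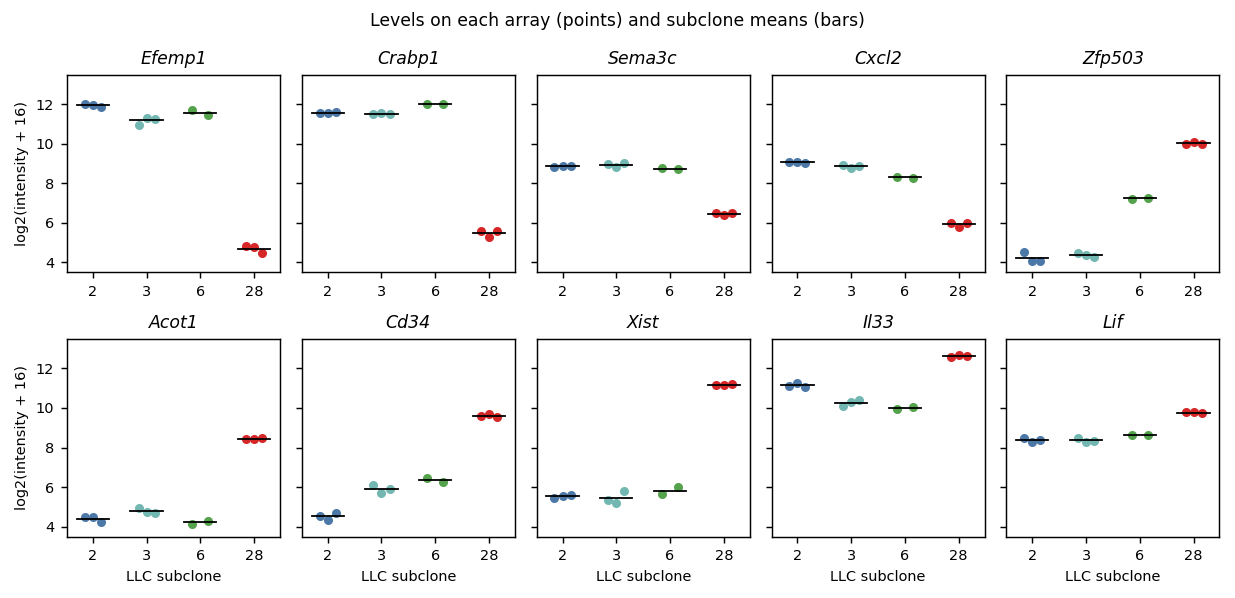
Level on each array (points, log2(intensity + 16)) and subclone mean (bars) of 10 genes in subclones 2, 3, 6 and 28. In each panel the 3 arrays of subclone 28 lie outside the range of the 8 others, and Zfp503 and Cd34 show graded levels among the references.

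Sema3c encodes a class 3 semaphorin, a secreted guidance cue read by neuropilins and plexins. Its arrays gave 8.83, 8.88 and 8.90 in subclone 2, 8.98, 8.84 and 9.01 in subclone 3, 8.75 and 8.71 in subclone 6, and 6.48, 6.41 and 6.48 in subclone 28. The references were close together and subclone 28 lay below all of them. The difference was -2.39 ± 0.053 (adjusted p = 2.85e-16, limma), or 5.25-fold, and it was similar in size against each subclone (-2.41, -2.49 and -2.28). A second, weaker probe set of Sema3c was lower too (-0.91, -1 and -0.82). All 4 other subclones had more Sema3c than subclone 28, from 8.34 in subclone 19 to 10.73 in 18.

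Some receptors of such ligands were higher. Nrp1 (9.68 in subclone 28, difference 0.89) and Nrp2 (11.15, 0.74), the neuropilins, were higher against each subclone, as were Sema7a (0.72), a membrane-anchored semaphorin, and the plexin gene Plxnd1 (0.57). Of 31 semaphorins, plexins and neuropilins, 11 were higher (35.5%) and 3 lower (9.68%), with 17 not called and a median difference of 0.15. Over all genes these shares were 18.7% and 16.5%, and over expressed genes 30.0% and 26.4%. Of 33 slit, netrin, ephrin and receptor genes, 8 were higher and 4 lower. Slit2, a secreted repellent, was called against the mean (1.11 ± 0.121) but not by 1 log2 unit against subclone 3 (0.51), and its difference was 0.39 with all its probe sets averaged.

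Sema3c had neighbours that changed on the same chromosome. Cd36, a scavenger receptor and fatty acid transporter, is the next tested gene along chromosome 5, and it was higher by 1.62 ± 0.070, with 5.96, 5.97 and 6 in subclone 28 against 4.27 to 4.45 on all reference arrays. It stayed below the low level, and with a pseudocount of 64 its difference was 0.70 and no longer called. Cacna2d1, a calcium channel subunit 2 tested genes away on the other side, was lower (-1.21). Plac8 and Hpse, with 1 tested gene between them, also moved in opposite directions on that chromosome.

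Plac8, a small cysteine-rich protein, was 8.65, 8.66 and 8.71 in subclone 28 and between 5.75 and 6.27 on every reference array (2.66 ± 0.084). Hpse encodes heparanase, which cuts heparan sulfate chains in the matrix. It was 4.96, 5.11 and 4.81 in subclone 28 and between 6.98 and 7.80 on the reference arrays (-2.55 ± 0.074). Neither gene overlapped between subclone 28 and the references, and both differed from all 7 other subclones in the study.

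Of the proteases acting outside the cell and their inhibitors, 41 were measured, 17 of them higher (41.5%, against 18.7% of all genes) and 7 lower (17.1%, against 16.5%). Among expressed genes the shares were 30.0% and 26.4%, and 32 of these 41 were expressed. Timp3, an inhibitor of metalloproteinases that binds to the matrix, was lower (5.81, 5.58 and 5.66 in subclone 28 against 7.52 to 8.29; -2.22 ± 0.095). Adam8, a membrane-bound metalloproteinase, was higher (9.18, 9.08 and 9.15 against 6.70 to 7.97; 1.95 ± 0.085). Both sets of arrays were separate. Mmp9, a gelatinase, was 8.98 in subclone 28, 8.17 in subclone 2, 5.85 in subclone 3 and 7.99 in subclone 6. It was called against the mean (1.65), yet subclone 3 made most of that difference, and with the 8 reference arrays taken as one group the adjusted p was 0.0745. Mmp13, a collagenase, was lower against each subclone (-0.78), and Reck, a membrane-anchored protease inhibitor, was higher (0.70).

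Zfp503 is a zinc finger protein of the NET family, whose members act as transcriptional repressors. It was 4.51, 4.09 and 4.09 in subclone 2, 4.48, 4.36 and 4.29 in subclone 3, 7.22 and 7.27 in subclone 6, and 9.99, 10.08 and 10.00 in subclone 28. It was thus near the floor in subclones 2 and 3, intermediate in 6 and highest in 28. The difference from the mean was 4.74 ± 0.082 (adjusted p = 9.97e-18, limma), but the pairwise values were 5.80, 5.65 and 2.78. A second probe set gave 2.14, 1.83 and 1.55. Subclone 19 had an intermediate level too (8.09), and the means of the rest were at most 4.53. Zfp703, the other NET family gene, was 9.47 in subclone 28 and between 8.91 and 9.57 in the references, and its difference of 0.21 was called by adjusted p but turned in sign against subclone 2 (-0.09).

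Acot1 encodes a cytosolic enzyme that hydrolyses long-chain acyl-CoA to free fatty acid and CoA, and it is a textbook target of the fatty acid receptor PPAR-alpha. It was 8.46, 8.41 and 8.49 in subclone 28. In the references it was 4.48, 4.49 and 4.25 in subclone 2, 4.94, 4.72 and 4.68 in subclone 3, and 4.16 and 4.27 in subclone 6. No reference array came near those of subclone 28, and the difference was 3.99 ± 0.086 (adjusted p = 2.08e-16, limma), 12.8-fold against the closest subclone. The 4 other subclones were also at the floor, the highest at 4.95.

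The other acyl-CoA thioesterases differed far less or were not called. Of 15 measured, 2 were higher and 3 lower by adjusted p, and the other higher member, Acot7, differed by 0.09. Acot2, the mitochondrial paralogue whose upstream sequence is shown above, was lower (7.38 against 7.56 to 7.85; -0.37 ± 0.05), as was Acot9 (-0.32). Acot3 (0.04), Acot4 (-0.15), Acot5 (0.08) and Acot6 (0.01) were not called. The paralogues are close in sequence, so cross-hybridisation between their probes was not tested, and Acot1 had a single probe set. Of 36 genes of fatty acid oxidation and PPAR targets, 8 were higher and 9 lower, with a median of -0.06.

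Fabp4, a fatty acid carrier best known from adipocytes and macrophages, was higher as well, with 9.29, 9.31 and 9.25 in subclone 28. It was 5.73, 5.92 and 5.77 in subclone 2, 7.74, 7.27 and 7.62 in subclone 3, and 7.45 and 7.53 in subclone 6, and the difference was 2.33 ± 0.090. The other adipocyte markers measured, Adipoq (4.83), Lep (4.19) and Cidec (4.90), were near the floor in subclone 28 and were not called. The summed level of the 4 adipocyte markers, 9.35 in subclone 28 against 6.40 to 7.77, was thus carried by Fabp4. Mogat2, an enzyme of triglyceride synthesis, was higher by 1.88 and barely above the low level (6.40).

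Genes with a pattern over the 8 subclone means most like those of the 4 genes were found by Pearson correlation, as a description with 8 points, among 2328 genes whose means spanned 1 log2 unit or more. Acot1 was most like Foxc2 (0.992), Gpc4 (0.988) and Adam23 (0.982). All of these were at least 1 log2 unit above the mean of each of the 7 other subclones. In subclone 28 itself, however, Foxc2 (5.74) was below the low level and Adam23 (6.35) barely above it. Zfp503 was most like Tafa2 (0.947), Fyb (0.937) and Noct (0.927). Efemp1 was most like Rsph9 (0.971), the imprinted gene Peg3 (0.937) and Crlf2 (0.883), and Sema3c was most like Tmem238 (0.919), Cyba (0.911) and Tubb2b (0.901).

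Cytokine genes changed in both directions. Il33, an alarmin of the interleukin-1 family, was already high in the references and highest in subclone 28. It was 11.09, 11.26 and 11.07 in subclone 2, 10.12, 10.30 and 10.38 in subclone 3, 9.96 and 10.03 in subclone 6, and 12.57, 12.67 and 12.62 in subclone 28. The 3 arrays of subclone 28 were separate from the rest, and the difference was 2.15 ± 0.076 (adjusted p = 2.48e-13, limma), 2.79-fold against the closest, subclone 2. Of 17 interleukin-1 family and alarmin genes, 4 were higher by limma (23.5%, near the 18.7% of all genes) and 0 lower, also at an unadjusted p under 0.05. They were Il33, Il18 (0.49), the receptor accessory chain Il1rap (0.46) and the decoy receptor Il1r2 (0.36). Il1a (4.61) and Il1b (4.70) were low everywhere. In the 4 other subclones Il33 was between 7.50 and 9.74.

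Lif, a cytokine that signals through the gp130 receptor chain, was 9.78, 9.79 and 9.74 in subclone 28 against 8.28 to 8.62 over the reference arrays (1.31 ± 0.078, adjusted p = 3.15e-10, limma). There was no overlap, and Lif was also higher than on every array of subclones 18, 19, 23 and 24. Il6, of the same family, was 6.38, 6.28 and 6.19 in subclone 28 and between 4.85 and 5.39 in the references, so it differed by 1.10 ± 0.071, but close to the low level. Il11 was higher by 0.50. Osmr, the receptor chain for oncostatin M, was lower (7.01 against 9.52, 7.78 and 8.39; -1.55), by less than 1 log2 unit against subclone 3. The shared chain Il6st was not called (-0.05). Of 14 genes of this family measured, 5 were higher and 3 lower.

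Chemokine genes divided evenly, 6 higher and 6 lower of 27. Cxcl2, which attracts neutrophils, was 6.01, 5.79 and 6 in subclone 28 and 8.29 to 9.10 in the references (-2.81 ± 0.047). Cxcl5, another neutrophil attractant, remained strong but was lower in subclone 28: 11.15, 11.27 and 11.25 against 12.14 to 12.92, a difference of -1.37 ± 0.062. Its difference of -1.02 from subclone 3 lies just inside the threshold, and Pax6 (0.98 in size) is the first lower gene outside it. Cxcl1, a further member of that group, was higher (0.40), as was Ccl7 (0.80), which attracts monocytes. Csf1, the growth factor of macrophages, was higher by 0.96. Over 40 secreted factors with reported actions on adipocytes or in cachexia, 11 were higher and 3 lower, with a median of 0.0.

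Several receptors and innate immune genes belonged to the 87. Casp4 and Casp12, inflammatory caspases with no tested gene between them on chromosome 9, were both higher. Casp4 was 10.55, 10.51 and 10.51 in subclone 28 against 7.73 to 8.95 in the references (2.18), and Casp12 was 9.11, 9.16 and 9.15 against 6.62 to 8.15 (1.87). For both the arrays were separate, though subclones 18 and 19 were about as high. P2rx7, a channel gated by extracellular ATP, rose by 2.2, and Il13ra1, a receptor chain for interleukins 4 and 13, by 1.44. Gas6, a ligand of the TAM receptor kinases, was 7.58, 7.63 and 7.63 in subclone 28 against 4.58 to 6.31 (2.38). Itgb2, the integrin chain best known from leukocytes, was lower (5.70 against 8.03 to 8.65; -2.62), and Crlf2, the receptor chain for TSLP, was lower by 1.31.

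Antigen presentation genes were lower where they differed: of 17 genes of the MHC class I pathway, 8 were lower by limma's adjusted p, 3 of them against each subclone, and 0 were higher (1 at an unadjusted p under 0.05). That is 47.1% of the list lower, against 16.5% of all genes, and 6.5% of all genes were lower against each subclone. Among expressed genes 26.4% were lower, and 16 of these 17 genes were expressed. Erap1, the peptidase that trims peptides for MHC class I, was the one member apart from each subclone (6.74, 6.53 and 6.31 against 7.84 to 8.31; -1.55 ± 0.079). Psmb10, an immunoproteasome subunit, differed by -0.74, and the class I heavy chains H2-K1 (-0.21) and H2-D1 (-0.22) by less. The list median was -0.05. Of 38 interferon-stimulated genes, 9 were higher and 3 lower.

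Egfr, the epidermal growth factor receptor, was lower by its main probe set: 6.69, 6.62 and 6.53 in subclone 28, 9.20, 9.15 and 9.18 in subclone 2, 7.91, 7.85 and 7.92 in subclone 3, and 8.25 and 8.05 in subclone 6 (-1.79 ± 0.061). A second probe set went the same way (-1.87, -1.19 and -1.17), but another, above the low level, gave -0.51, -0.16 and 0.09. With all 7 probe sets averaged the difference was -0.51. The size of the Egfr difference thus varied with the probe set. Among the 87 genes, 43 of 45 further probe sets with expression had the direction of the main one in all 3 pairs, and the 2 exceptions were both of Egfr. Of 59 growth factor ligand and receptor genes, 17 were higher and 7 lower. Pdgfra was higher (1.25 ± 0.043, and 0.95 with its probe sets averaged) and Bdnf was lower (-1.19 ± 0.047), both by less than 1 log2 unit against subclone 6.

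Output genes of the ERK pathway, the kinase cascade downstream of growth factor receptors and RAS, were shifted upward. Of 26 measured, 21 were higher and 2 lower by adjusted p (80.8% and 7.69%, against 18.7% and 16.5% of all genes). Against each subclone, 14 and 2 passed in the same direction, against 7.99% and 6.5% of all genes. Among expressed genes the shares higher and lower than the mean were 30.0% and 26.4%, and 25 of these 26 were expressed. The median difference was 0.39, and it was 0.38, 0.37 and 0.40 against subclones 2, 3 and 6. The largest were Lif (1.31), the phosphatase gene Dusp5 (1.05), Hbegf (1.01), which encodes an EGF receptor ligand, Ier3 (0.75), Phlda1 (0.71), Etv5 (0.70) and Fosl1 (0.65). Dusp5 was only 0.30 above subclone 3, its adjusted p was 0.059 with the 8 references as one group, and Hbegf fell just under 1 in other settings. Fos (-0.40) and the inhibitor gene Spred1 (-0.38) were lower.

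**Figure D3:**
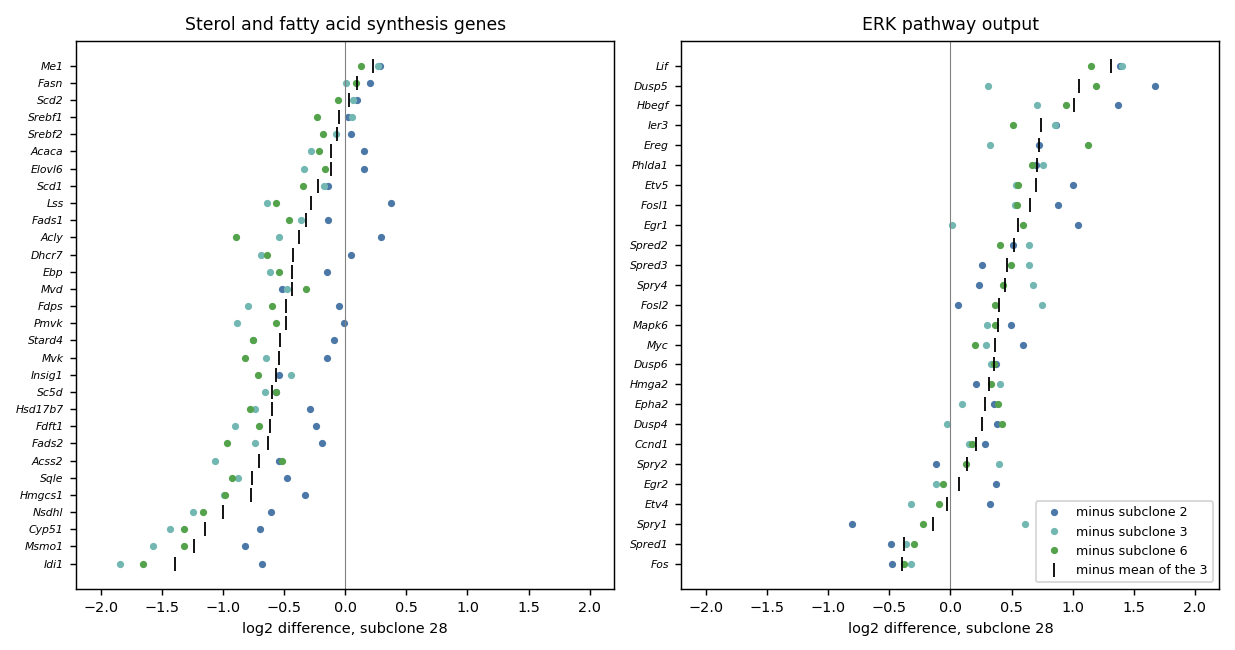
Log2 difference of subclone 28 from subclones 2, 3 and 6 (points) and from their mean (ticks) for each measured gene of sterol and fatty acid synthesis (left) and of ERK pathway output (right). Most sterol genes lie below 0 with subclone 2 the closest reference, and most ERK output genes lie above 0 against all 3.

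Sterol synthesis genes were lower. Of 30 genes for sterol and fatty acid synthesis, 22 were lower (73.3%, against 16.5% of all genes) and 1 was higher. Against each subclone, 12 were lower (6.5% of all genes were). All 30 were expressed, and 26.4% of expressed genes were lower than the mean. The list median was -0.48, but it was -0.14 against subclone 2, -0.65 against 3 and -0.58 against 6. Idi1, an isomerase of the isoprenoid route to cholesterol, was 9.70, 9.65 and 9.72 in subclone 28, 10.35, 10.26 and 10.50 in subclone 2, 11.56, 11.53 and 11.49 in subclone 3, and 11.36 and 11.32 in subclone 6. It was lower than every reference array, by 1.39 ± 0.049 in the mean and by 0.68 against subclone 2. Msmo1 (-1.24), Cyp51 (-1.15) and Nsdhl (-1), enzymes that demethylate lanosterol and its products, followed the same order, whereas Fasn (0.10), the fatty acid synthase, and the regulators Srebf1 (-0.05) and Srebf2 (-0.06) differed little. Vldlr, a lipoprotein receptor, was lower by 1.18 but by only 0.51 against subclone 2.

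NRF2 targets, genes of glutathione and redox metabolism, were higher more often than lower (17 against 5 of 29, median 0.20). These were 58.6% and 17.2%, against 18.7% and 16.5% of all genes and 30.0% and 26.4% of expressed genes. The list median was 0.29 and 0.31 against subclones 2 and 6 but only 0.02 against subclone 3. Gsta3, a glutathione transferase, was 7.93, 7.95 and 7.84 in subclone 28 and between 5.32 and 6.82 in the references (1.87 ± 0.127). Slc7a11, the cystine importer, was higher by 1.00 and Abcc4, an efflux pump, by 0.63. Hmox1, the haem-degrading enzyme, was lower by 0.82. Of 34 genes of hypoxia and glycolysis, 16 were higher and 5 lower (47.1% and 14.7%, median 0.14). Against each subclone, 8 were higher (7.99% of all genes were).

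Other lists showed little net shift or one that varied with the reference. Proliferation genes had a median of 0.49 against subclone 2 but -0.28 and -0.30 against 3 and 6, with 10 higher and 13 lower of 46 against the mean. Of 40 genes that respond to endoplasmic reticulum stress or amino acid shortage, 14 were higher and 16 lower, with Atf5 lower by 1.10. Of 29 p53 targets, 10 were higher and 4 lower, and of 30 TGF-beta and YAP targets, 11 and 6. For 36 targets of Wnt, Notch and Hedgehog the counts were 8 and 4. Notch1, a receptor, was lower by 1.25, and by 0.86 against subclone 6.

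Among 37 BMP, activin and TGF-beta ligands and antagonists, 10 were higher and 4 lower. Bmp2 and Fst, an activin antagonist, were called against the mean (1.58 and 1.40) but not against every reference. Bmp2 was 0.11 below subclone 2, and Fst 0.41 below subclone 3. With the references as one group their adjusted p was 0.462 and 0.312 (limma). Fstl1, a secreted glycoprotein, was higher by 1.00 ± 0.036, at the threshold, and dropped just under it in several settings.

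Of 27 mesenchymal genes, 12 were higher and 2 lower (44.4% and 7.41%, against 18.7% and 16.5% of all genes, median 0.09). Against each subclone, 5 were higher (7.99% of all genes were). Among expressed genes 30.0% were higher and 26.4% lower than the mean, and 18 of these 27 were expressed. Of 36 epithelial genes, 2 were higher and 5 lower, among them Krt19, which was level with subclone 2 (-0.03). Foxc2, a forkhead factor, was at the floor in all 7 other subclones (4.34 to 4.54) and 5.74 in subclone 28, still below the low level, and with a pseudocount of 64 its difference of 1.33 became 0.55 and was no longer called. Of 19 lung epithelial genes, 4 were higher and 3 lower, with Hopx higher by 1.17. Of 51 adhesion molecules, 11 were higher and 17 lower. Pcdh17, a protocadherin, was 5.84 in subclone 28 against at most 4.71 elsewhere. It too was below the low level, and its difference of 1.33 became 0.57, no longer called, with that pseudocount.

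Cd34, a sialomucin of haematopoietic progenitors and endothelium, was one of the largest increases. It was 9.57, 9.69 and 9.53 in subclone 28, 4.56, 4.34 and 4.70 in subclone 2, 6.12, 5.69 and 5.89 in subclone 3, and 6.46 and 6.27 in subclone 6. Subclone 28 was clear of every reference array (4 ± 0.081, adjusted p = 1.04e-16, limma), but subclones 18 (10.11), 19 (8.84) and 23 (9.90) were high too. Other endothelial markers did not move with it: Pecam1 (4.81), Cdh5 (5.29) and Kdr (4.89) were near the floor in subclone 28, as they were in the references, and the summed level of the 6 endothelial markers was 6.80 in subclone 28 against 6.46 to 7.07.

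Leukocyte markers gave the same picture. Ptprc (4.64), the pan-leukocyte phosphatase, Cd3e (4.25) and Adgre1 (4.75) were near the floor, and Csf1r (7.27) and Laptm5 (6.77) were nearly level in all 4 subclones. Lyz2, a macrophage lysozyme, was higher (6.82 against 5.73 to 6.14; 0.89), as was Lyz1 (1.64), a close paralogue that its probes may not separate. Cd68, a lysosomal protein of macrophages and other cells, was higher by 1.15, but by only 0.36 against subclone 3. The summed level of the 8 leukocyte markers was 8.59 in subclone 28 and 8.36 to 8.47 in the references. Of the epithelial tumour markers, Krt8 (10.83), Krt18 (11.79) and Epcam (7.67) were present in subclone 28, and the lung lineage markers Nkx2-1 (4.38) and Sftpc (5.47) and the cadherin Cdh1 (4.38) were near the floor in all 4 subclones.

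Further genes with large increases were of mixed function. Myo1d, an unconventional myosin, was 9.10, 9.22 and 9.36 in subclone 28 against 5.60 to 6.23 (3.29 ± 0.108). Iqgap2, a scaffold protein, was higher by 3.06 and Dppa4, a nuclear protein of pluripotent cells, by 3.92, the latter with an intermediate level in subclone 6 (6.85). Dppa4 was higher still in subclone 23 (10.88). Afp, an oncofetal protein, went the other way (-1.70) but was level with subclone 6 (0.04). Of 27 pluripotency and oncofetal genes, 3 were higher and 2 lower. Of 30 imprinted genes, 5 were higher and 4 lower, and the paternally expressed Peg3 was lower (-0.87). Ndn, a growth suppressor expressed from the paternal allele, was higher (7.83 against 5.53 to 5.98, difference 2.12). Another Ndn probe set gave 4.99, 4.91 and 2.70, with subclone 6 intermediate (6.58 against 9.28 in subclone 28). A probe set near the floor did not rise (-0.128, -0.088 and -0.345). Ndn was higher still in subclones 18 (10.20) and 23 (9.07).

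Xist, the noncoding RNA that coats and silences an X chromosome in female cells, had the largest increase. It was 5.44, 5.57 and 5.61 in subclone 2, 5.34, 5.19 and 5.78 in subclone 3, 5.63 and 6.02 in subclone 6, and 11.18, 11.18 and 11.19 in subclone 28. The references were low without exception and the arrays of subclone 28 nearly identical. The difference was 5.58 ± 0.120 (adjusted p = 2.08e-16, limma), and the 2 other Xist probe sets gave 4.98 to 5.37 in the pairs. Subclones 18 and 19 had Xist as well (11.38 and 11.34), whereas 23 and 24 did not.

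Of 10 genes of the X inactivation centre or known to escape inactivation, 5 were higher against each subclone (7.99% of all genes were). They were Xist, the demethylase genes Kdm6a (0.57) and Kdm5c (0.48), Mid1 (0.84) and Eif2s3x (0.15). Ftx (-0.30), a noncoding gene beside Xist, and Ddx3x (-0.15) were lower. The median difference of 320 expressed genes on the X was -0.02, with 24.4% higher and 29.7% lower, against 30.0% and 26.4% of all expressed genes with a chromosome. No gene of the Y chromosome was above the low level in the 4 subclones, and 0 of the 6 measured were called by limma, also at an unadjusted p under 0.05.

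Whole chromosomes were shifted relative to the references by small amounts that recurred on every array. These are medians over genes at or above the low level, given as a description, beside a median of 0.02 for all such genes. Chromosome 10 was higher by 0.22 (0.26, 0.23 and 0.20 against subclones 2, 3 and 6), with 66.9% of its 511 genes higher. Chromosomes 16 (0.20) and 3 (0.18) were higher too, and chromosome 8 was lower by 0.22 in the mean, with 62.3% of its genes lower. On chromosome 10 the 3 arrays of subclone 28 lay between 0.22 and 0.23, and the 8 references between -0.04 and 0.07.

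The shifts ran along the chromosomes. Cut into stretches of 25 neighbouring genes, chromosome 10 had a median above 0 in all 3 pairs in 20 of 20 stretches, chromosome 16 in 13 of 13 and chromosome 3 in 18 of 20, and chromosome 8 was below 0 in 22 of 22. Chromosome 12 was lower by 0.14 (10 of 15 stretches). Chromosome 13 was lower by 0.19, but by only 0.03 against subclone 2 and by 0.285 and 0.262 against 3 and 6. Stretches on one side in all 3 pairs were also common on chromosomes with smaller shifts. On chromosome 11, 21 of 35 were above 0, and on 7, 16 of 31 were. On chromosome 2, 14 of 34 were below 0. Chromosome 5 had 8 of 27 above and 5 below. DNA content was not measured, and no cause of these shifts was tested.

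**Figure D4:**
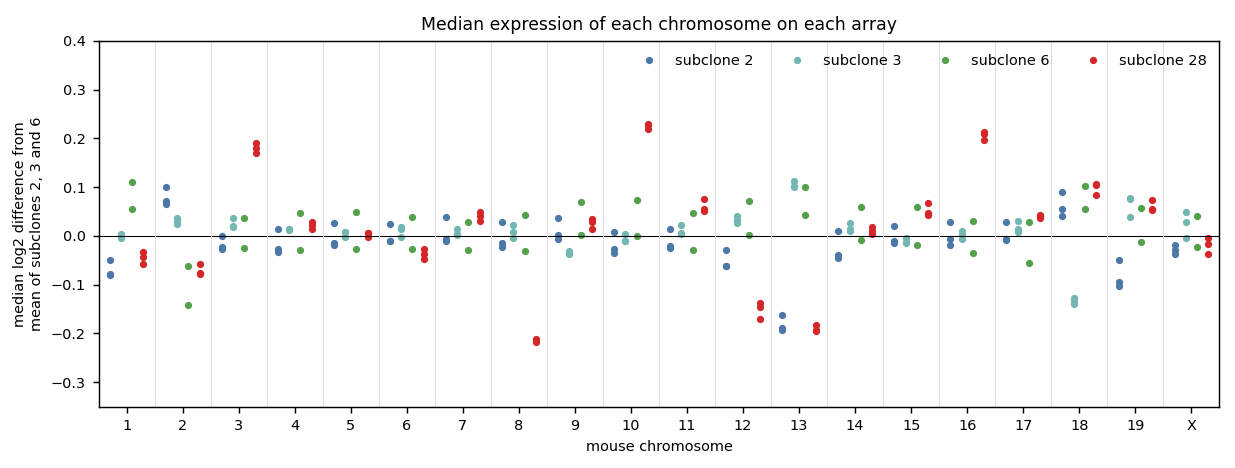
Median log2 difference from the mean of subclones 2, 3 and 6 over the expressed genes of each chromosome, for each of the 11 arrays (points). The arrays of subclone 28 lie together above the references on chromosomes 3, 10 and 16 and below them on chromosomes 8 and 12.

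Some of the genes above lie on these chromosomes, and their differences are far larger than the shift. Over all genes tested, 0.308% were apart on the higher side and 0.17% on the lower. Of the 87, chromosome 10 (511 expressed genes) held 7 higher and 2 lower genes. Chromosome 16 (333 expressed) held 5 higher, 3 (505) held 5 higher, and 8 (567) held 2 higher. Some of the 87 were below the low level, so no shares per chromosome are given. For scale among chromosomes with smaller shifts, the X (320 expressed) held 5 higher and 1 lower, and 19 (362) held 4 higher. Chromosome 9 (584) held 4 higher and 1 lower, and 1 (605) held 4 higher. Chromosome 11 (882) held 2 higher and 3 lower, and 17 (507) held 0 higher and 1 lower. Chromosome 5 (670 expressed), with a median of 0.0, held 11 lower and 4 higher, the most lower genes on any chromosome. They included Sema3c, Cxcl2, Cxcl5, Hpse, Arap2 and 2900026A02Rik on the lower side and Cd36, Plac8, Steap4 and P2rx7 on the higher side. For the sterol genes Msmo1 on chromosome 8 and Idi1 on 13, the chromosome's own median was lower too, and its part in their difference was not tested.

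Comparison with subclones 18, 19, 23 and 24 shows how far the differences held beyond subclones 2, 3 and 6. Of the 56 higher genes, 21 (0.115% of genes tested) were at least 1 log2 unit above the mean of each of the 7 other subclones, with no overlap of arrays. Of the 31 lower genes, 8 (0.044%) were below all 7 in the same way. No p-value was computed against subclones 18, 19, 23 and 24. The higher ones included Acot1, Zfp503, Myo1d, Iqgap2, Plac8, Fabp4, Il33, Lif, Foxc2, Pcdh17 and Cst6, a cysteine protease inhibitor, and the lower ones Sema3c, Hpse, Arap2, Cacna2d1, Foxred2, Lrrc17, Tubb2b and 2900026A02Rik. Iqgap2 was intermediate in subclone 23 (6.85 against 7.99 in subclone 28), and Foxc2 and Pcdh17 were below the low level even in subclone 28. The last of the lower genes, 2900026A02Rik, was 4.46, 4.12 and 4.52 in subclone 28 and at least 7.05 in the mean of every other subclone (-2.92 ± 0.099).

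Most of the remaining genes were shared with other subclones. Counting a subclone as being on the side of subclone 28 when its mean was closer to subclone 28 than to the nearest reference, subclone 19 was there for 24 of the higher and 17 of the lower genes, 18 for 21 and 11, 23 for 16 and 13, and 24 for 1 and 3. By this count 24 of the higher and 12 of the lower genes were shared with none of the 4. Among them were Il13ra1, Lama4, Erap1 and Crlf2, which did not reach 1 log2 unit against all 7. Xist, Casp4 and Casp12 were shared with 18 and 19, Cd34 with 18, 19 and 23, Efemp1 with 19, and Crabp1 with 19 and 23. Wtip, a cytoplasmic adaptor with LIM domains, was low in subclone 28 (4.73, difference -3.13) and in 18, 19 and 23 as well.

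**Figure D5:**
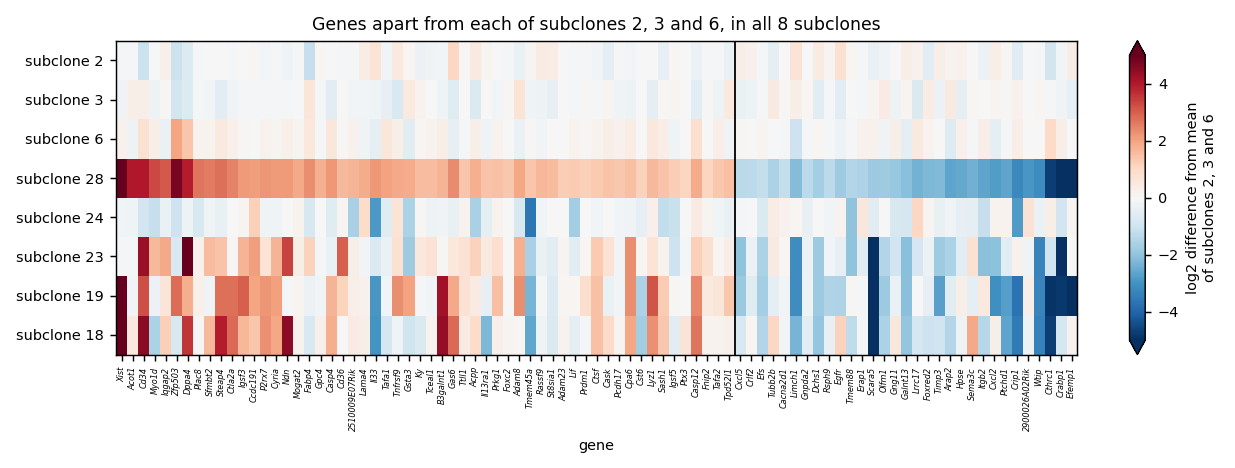
Log2 difference from the mean of subclones 2, 3 and 6 (colour, saturated at the ends of the scale) of the 56 higher genes (left of the line) and 31 lower genes (right) in all 8 subclones. Subclones 18, 19 and 23 share a part of the pattern of subclone 28, and subclone 24 follows subclones 2, 3 and 6 for most genes.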

How the data were processed

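The data were expression values of total RNA from 8 LLC subclones on 23 Affymetrix arrays, labelled as biotinylated cRNA, per the labels. The authors deposited linear intensities, 1 per probe set and array (45101 probe sets, 0.61 to 17068.52). Neither the algorithm nor the scaling is given in the sources used here. Medians of the compared arrays were 40.83 to 44.42, and no arrays were identical. From these deposited intensities, log2(intensity + 16) was computed here. After 64 control probe sets were left out, 34945 had 1 symbol in the platform annotation, 932 several and 9160 none listed. Entrez identifiers matched a RefSeq table of GRCm38.p6 for 34741, which gave chromosomes and gene order. Where a gene had several probe sets (9010 genes), that of highest average signal across the 23 arrays stood for it.

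All 23 arrays entered a single linear model, 1 coefficient for each subclone, in limma 3.58.1 in R 4.3.3 (lmFit, eBayes; 15 residual degrees of freedom, median residual SD 0.113), with contrasts of subclone 28 against the equally weighted mean and against each subclone. p-values were adjusted by Benjamini-Hochberg over 18193 genes. Array number limits the precision. As a check of the code, data were simulated for 18193 genes with 1 mean per gene and independent normal noise. In them, 100 of 100 genes changed by 1.5 log2 units were recovered against the mean and 99 against each subclone. Of 17993 unchanged genes, 0 were called. Unchanged genes had no difference between subclones by construction, so this gives no error rate for these cultures.

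The genes and gene lists were chosen with earlier results of these data known, so no count over a list is independent evidence, and no p-value was adjusted over a list alone. Named by rule were the 4 proposed genes, Xist, the 12 higher and 12 lower genes with the largest smallest pairwise difference, list members apart from each subclone, and up to 3 further called members per list. Other list members were named after their values were seen. Summed marker levels are log2 of summed intensities.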

Additional observations from a re-analysis of the deposited data

How the results depend on the processing

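The counts of genes changed with the pseudocount. With a pseudocount of 1, 199 genes were higher and 139 lower than the mean, and 74 and 49 were apart from each subclone, the 87 genes among them. With a pseudocount of 64 the counts were 66 and 38, and 33 and 20. With the mean of all probe sets of a gene, 64 of the 87 genes stayed apart from each subclone, and 76 did among genes that passed the filter on low levels. Requiring separate arrays in place of the pairwise thresholds gave 104 higher and 57 lower. Leaving out each of 11 arrays in turn gave 107 to 117 higher and 57 to 66 lower against the mean, and 54 to 57 and 30 to 33 against each subclone. Over all genes with a chromosome, without the filter on low levels, the medians were 0.077 for chromosome 3, -0.12 for 8, 0.13 for 10, -0.082 for 12, -0.089 for 13 and 0.10 for 16. After quantile normalization they were 0.16, -0.23, 0.20, -0.17, -0.21 and 0.18, and -0.045 for the X. No result changed direction. Against the mean, 1217 of 1254 values of the 60 named genes under these alternatives stayed on their side of the thresholds. The other 37, of 21 genes, did not, 13 of them with the pseudocount of 64. This does not count whether a gene stayed apart from each subclone. With the pseudocount of 64, 34 of the 87 genes no longer did.

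Arrays of different subclones share replicate numbers. Deviations of same-numbered arrays from their subclone means correlated by -0.086 to 0.032, so no shared deviation was seen. This cannot show whether same-numbered cultures were handled together, which the labels do not say. With the replicate block the counts were 109 and 63 against the mean, and 56 and 31 against each subclone. With no counts or detection calls, the floor of the signal limits statements on low genes.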

Other observations

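Of 9160 probe sets that the annotation used here does not list, 3 (0.0328%) were higher in subclone 28 than in each of subclones 2, 3 and 6 by the same thresholds, and 1 (0.0109%) was lower. The one with the largest increase was 6.90 in subclone 28 and between 4.43 and 4.5 in the references. The one that was lower was 8.04 in subclone 28 and 11.37, 9.05 and 10.10 in subclones 2, 3 and 6. Their genes are not named here.

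RefSeq upstream windows were matched for 43 of the higher and 23 of the lower genes apart from each subclone. The median number of CG dinucleotides was 9 for the higher and 18 for the lower genes, against 6 over all windows. The windows cover 27018 genes, among them genes that were not tested or not expressed here. No median was taken over tested or expressed genes alone, so the comparison cannot tell whether the CG counts are particular to these genes. These are counts over reference sequence with no test, and methylation was not measured.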
